A study of Mus musculus with 60 samples.

Results

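The genes described here are 53 imprinted mouse genes that lie outside the Dlk1-Dio3 locus, out of 24260 gene symbols in the deposited nascent RNA tables. They were listed by name, all 53 were matched to the tables (Nespas through a synonym), and the transcript with the highest RPKM (reads per kilobase of gene and per total of mapped reads) summed over the libraries stood for each gene. The study measured nascent RNA in E14 mouse embryonic stem cells transfected with a control siRNA (siCtrl, 2 libraries) or with an siRNA against Esrrb (siEsrrb, 2 libraries), a transcription factor of the nuclear receptor family that helps keep these cells pluripotent. The other 56 samples of the series were not analysed here. Both groups were grown on gelatin with 15% serum and 1000 U/ml LIF, were transfected with Lipofectamine RNAiMAX, and were harvested after 72 h. RNA came from the chromatin pellet, which enriches for RNA still being made at its gene, and the sequencing libraries were stranded and depleted of ribosomal RNA. An siRNA lowers but does not remove its target, and the knockdown is the only difference the labels give between the groups.

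An imprinted gene is transcribed mainly from the copy inherited from 1 parent, because DNA methylation set in the egg or the sperm marks that copy at an imprinting control region. Imprinted genes sit in clusters, in which 1 control region acts on several genes and often drives a long noncoding RNA that silences its neighbours on the same copy. Many paternally expressed genes promote growth of the fetus and placenta, and many maternally expressed genes restrain it. In embryonic stem cells not all of these genes are expressed or imprinted. The reads do not tell the parental copies apart, so "paternally expressed" and "maternally expressed" below are the usual assignments of the genes, many of them tissue-dependent, and were not measured.

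Of the 53 genes, 41 had promoter windows in the RefSeq table (build GRCm38.p6), 63 windows of 300 bases in all, each with 250 bases before a start. Cdkn1c, Dcn, H19, Impact, Kcnk9, Kcnq1, Nap1l4, Nespas, Peg10, Peg13, Sgce and Trappc9 had no entry. Both strands were searched for AAGGTCA, the core of the element that estrogen-related receptors bind, for the longer TCAAGGTCA, which contains it, and for TGCCGC, the hexamer that the imprint-protecting zinc finger protein ZFP57 binds when methylated. The core was present in 1 of the 63 windows (1.59%), against 4.72% of 32851 windows of all genes. The longer element was in 0 of the 63, against 0.423% of all windows. TGCCGC was present in 15 windows of 14 imprinted genes (23.8%), against 11.6% of all windows. Snrpn and Snurf share the same window, and the Mest windows with the hexamer overlap almost fully, so the 15 are not all distinct. The hexamer contains CG, and the windows were not matched for their content of CG. A match shows only that the letters are in the window, and says nothing of binding in these cells. Ddc is shown first because its window holds the only receptor core and because Ddc had the lowest ratio to control among the imprinted genes above 0.05 RPKM. Phlda2 and the stretch between Peg3 and Usp29 are shown as the starts of genes that were higher in siEsrrb without any of the searched letters, and Mest and Snrpn as genes that were higher and hold the hexamer. Among the other genes with the hexamer, apart from Snurf, Igf2 and Mcts2 were higher in both siEsrrb libraries. Commd1 and Plagl1 were lower in both, and the rest overlapped. Capitals mark TGACCTT, the receptor core read on the other strand, in Ddc, and GCGGCA, the hexamer read on the other strand, in Mest and Snrpn. Each run is printed 5′ to 3′ on the strand of the gene and ends 30 bases after its start. The Ddc run is chr11:11898115-11898394 (minus strand), Phlda2 chr7:143502495-143502774 (minus), Mest chr6:30737800-30738079 (plus), Snrpn with Snurf chr7:60005170-60005449 (minus) and Peg3 with Usp29 chr7:6730390-6730612 (minus, the strand of Peg3).
Ddc: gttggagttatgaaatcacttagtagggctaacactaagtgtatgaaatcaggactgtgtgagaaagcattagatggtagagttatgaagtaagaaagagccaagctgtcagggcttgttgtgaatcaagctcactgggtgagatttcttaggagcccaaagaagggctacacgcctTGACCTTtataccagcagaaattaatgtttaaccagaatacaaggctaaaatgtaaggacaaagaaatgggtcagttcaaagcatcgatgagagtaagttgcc
Phlda2: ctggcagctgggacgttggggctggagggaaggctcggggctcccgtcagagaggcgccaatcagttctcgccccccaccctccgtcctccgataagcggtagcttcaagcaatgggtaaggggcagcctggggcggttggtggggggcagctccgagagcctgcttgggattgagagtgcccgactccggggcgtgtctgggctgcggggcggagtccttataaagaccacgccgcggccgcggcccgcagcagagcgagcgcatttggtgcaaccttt
Mest: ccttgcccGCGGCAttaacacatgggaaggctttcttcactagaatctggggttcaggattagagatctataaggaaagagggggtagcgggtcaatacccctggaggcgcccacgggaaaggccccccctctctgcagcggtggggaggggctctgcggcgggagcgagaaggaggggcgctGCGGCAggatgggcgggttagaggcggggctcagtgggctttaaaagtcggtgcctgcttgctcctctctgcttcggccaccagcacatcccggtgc
Snrpn and Snurf: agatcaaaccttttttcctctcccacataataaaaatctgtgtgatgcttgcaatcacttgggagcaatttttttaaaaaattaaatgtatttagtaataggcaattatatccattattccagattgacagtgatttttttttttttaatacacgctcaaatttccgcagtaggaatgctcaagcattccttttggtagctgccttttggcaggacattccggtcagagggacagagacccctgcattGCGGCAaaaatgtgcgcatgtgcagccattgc
Peg3 and Usp29: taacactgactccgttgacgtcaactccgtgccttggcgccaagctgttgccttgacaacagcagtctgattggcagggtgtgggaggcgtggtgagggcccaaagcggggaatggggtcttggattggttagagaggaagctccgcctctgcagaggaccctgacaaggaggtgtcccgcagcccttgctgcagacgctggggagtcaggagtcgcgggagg

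The library totals behind the RPKM were 24764879 and 68002338 reads in siCtrl and 22363943 and 61857158 in siEsrrb, so the libraries numbered 1 were the shallower ones in both groups. Esrrb itself stood at 3.39 and 3.10 RPKM in siCtrl and at 1.50 and 2.08 in siEsrrb, which is 44.2% of control in replicate 1 and 67.0% in replicate 2. All RPKM given here are the deposited values multiplied by a factor per library (0.925 to 1.09). The factor evens out shifts between libraries that remain after RPKM divides by the read total. Pluripotent stem cell markers were all measured (10 of 10 tested), while Cdx2, Elf5, Tpbpa and Prl3d1 of trophoblast, Gata6, Sox17, Pdgfra and Foxa2 of primitive endoderm, and Col3a1, Lum, Dcn, Postn and S100a4 of fibroblasts stayed below 0.05 RPKM in all 4 libraries. The summed RPKM of 12 trophoblast markers was 12.4 and 9.09 in siCtrl and 18.4 and 11.8 in siEsrrb, and the ranges overlap. Without a minimum, 5 of these 12 were higher and 1, Eomes, lower without overlap, against 18.3% and 16.2% of all 24260 genes. The 5 were Gata3 (232% and 233% of control), Krt7 (205% and 146%), Hand1 (459% and 146%), Ascl2 and Elf5. None of the 5 reached a mean of 0.5 RPKM, and Hand1 and Elf5 had at most 13 reads in any library. Eomes was at 44.1% and 46.1% of control. The trophoblast sum is mostly Krt18 (155% and 137% of control) and Krt8 (159% and 151%), whose groups overlap. Tfap2c, at 85.8% and 81.3% of control, also overlapped. For 12 primitive endoderm markers the sums were 10.9 and 9.63 against 7.94 and 7.86. Much of this difference is Lama1, with 2.79 and 2.58 RPKM against 0.552 and 1.16. With no minimum, 5 of these 12 were lower and 2 higher without overlap, against 16.2% and 18.3% of all 24260 genes. The 2 were Sparc (113% and 112% of control) and Dab2 (133% and 130%). The sums were 15.5 and 17.4 against 16.97 and 18.5 for 12 fibroblast markers, and 105 and 101 against 81.9 and 80.6 for the 10 stem cell markers. Of these 10, 8 were lower without overlap, Esrrb itself among them, against 22.0% of all tested genes. Only 1, Pou5f1, was higher without overlap, against 21.8%. The median log2 fold change of the 10 was -0.67. In limma 7 of them, all lower, had an unadjusted p under 0.05, against 5.33% of all tested genes, and 0 passed an adjusted p of 0.05. With no minimum, 3 of the 12 fibroblast markers were higher and 1, Dcn, lower without overlap, against 18.3% and 16.2% of all 24260 genes. Dcn had 3 and 8 reads in siCtrl and 1 and 3 in siEsrrb. The fibroblast sum is mostly Fn1, at 98.0% and 98.5% of control, while Acta2 (208% and 158% of control), Tagln (198% and 156%) and Thy1 (249% and 221%, named after its values were seen) were higher in both siEsrrb libraries. The part of such cells, or of the lower stem cell markers, in the results below was not tested. In bulk RNA, fewer cells of a type and less RNA per cell cannot be told apart. Nothing in the labels says that the 2 libraries of a group came from separate cultures, so each p-value rests on a spread between libraries that may be technical.

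Which imprinted genes were transcribed in these cells was read from the siCtrl libraries. Of the 53 genes, 33 had a mean of at least 0.5 RPKM over the 4 libraries, 13 lay between 0.05 and 0.5 RPKM, and 7 lay below 0.05 RPKM. The highest level was that of Peg10, a paternally expressed gene derived from a retrotransposon and needed for the placenta, with 16.9 and 12.5 RPKM in siCtrl. Nespas, the paternal noncoding RNA antisense to the Gnas locus, followed with 12.6 and 10.8 RPKM, so that the ranges of the leading pair overlap. Next came Mcts2 (5.38 and 5.71), a retrogene inside H13, then Zdbf2 (5.99 and 4.72), Blcap (5.16 and 4.55), Cd81 (4.39 and 4.85) and Impact (4.47 and 4.22), whose siCtrl values lie close enough that their order is not fixed by 2 libraries. Kcnq1ot1, the paternal noncoding RNA of the Kcnq1 domain, stood at 4.65 and 3.28 RPKM. The well-known fetal genes were far lower: Igf2, a fetal growth factor, had 0.907 and 0.762 RPKM, and H19, the maternal noncoding RNA beside it, had 0.130 and 0.296 RPKM, from 8 and 57 reads.

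**Figure D1:**
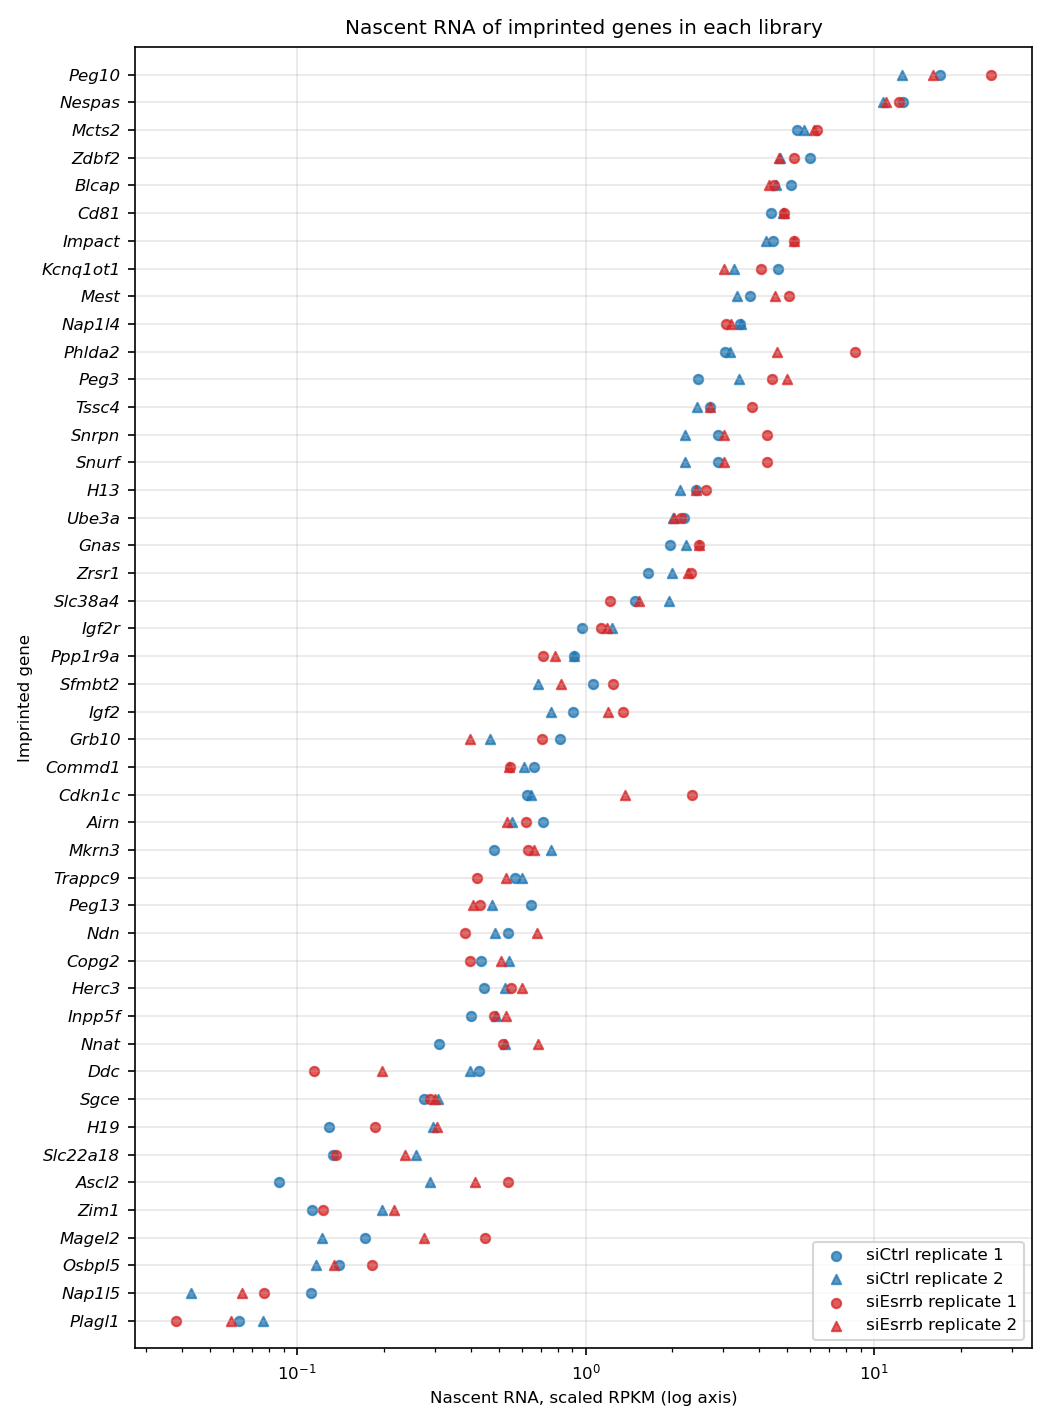
Scaled RPKM (log axis) of the 46 imprinted genes with a mean of at least 0.05 RPKM, 1 row per gene in the order of the siCtrl mean, with 1 point per library: siCtrl in blue, siEsrrb in red, replicate 1 as circles, replicate 2 as triangles. Red points lie to the right of both blue points for Cdkn1c, Phlda2, Peg3, Mest and Igf2, and to the left for Ddc.

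The main comparison asks how nascent RNA of imprinted genes differed after Esrrb knockdown. More of them were higher than lower, by modest amounts. Among the tested genes whose groups separated, the log2 fold change was highest for Cdkn1c and Phlda2, both maternal growth-restraining genes of the Kcnq1 domain, followed by the paternally expressed Peg3, Snrpn with Snurf, Igf2 and Mest. Both siEsrrb libraries lay above both siCtrl libraries for 14 of the 33 tested genes (42.4%), against 21.8% of all 9758 tested genes. Both lay below for 5 of the 33 (15.2%), against 22.0% of all tested genes, and the groups overlapped for the other 14. Snrpn and Snurf rest on the same reads, and counted as 1 they leave 13 of 32. The minimum of 0.5 RPKM is on the mean of all 4 libraries, so 2 of the 33, Herc3 and Nnat, passed it only through their siEsrrb values. Trappc9, counted among the 5 lower genes, passed it only through its siCtrl values. Peg13 and Copg2 reached it in siCtrl alone and Inpp5f in siEsrrb alone, and none of these was tested. The minimum was applied to the deposited RPKM, before the library factors. With no minimum, 18 of all 53 genes (34.0%) were higher and 10 (18.9%) lower without overlap, against 18.3% and 16.2% of all 24260 genes. The median log2 fold change was 0.13 over the 33 genes and -0.0010 over all tested genes. It was 0.15 within replicate 1 and 0.11 within replicate 2. In limma's test with Benjamini-Hochberg adjustment, 0 of the 33 genes and 0 of all 9758 genes passed an adjusted p of 0.05. The test on recovered reads with the same design (voom) also passed 0. At an unadjusted p under 0.05, limma called 6 of the 33 genes, all higher, against 5.92% of all tested genes higher and 5.33% lower. An exact permutation test of a single gene in 2 against 2 libraries cannot give a p under 0.333. With 1 library left out, separation became more frequent for all genes. Without siCtrl replicate 1, 19 imprinted genes were higher and 8 lower, against 36.2% and 39.2% of all tested genes. Without siCtrl replicate 2 the counts were 17 and 11, against 35.2% and 33.8%. Without siEsrrb replicate 1 they were 16 and 9, against 33.5% and 32.4%, and without siEsrrb replicate 2 they were 17 and 7, against 37.2% and 39.9%. The median was 0.077 without siEsrrb replicate 1.

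**Figure D2:**
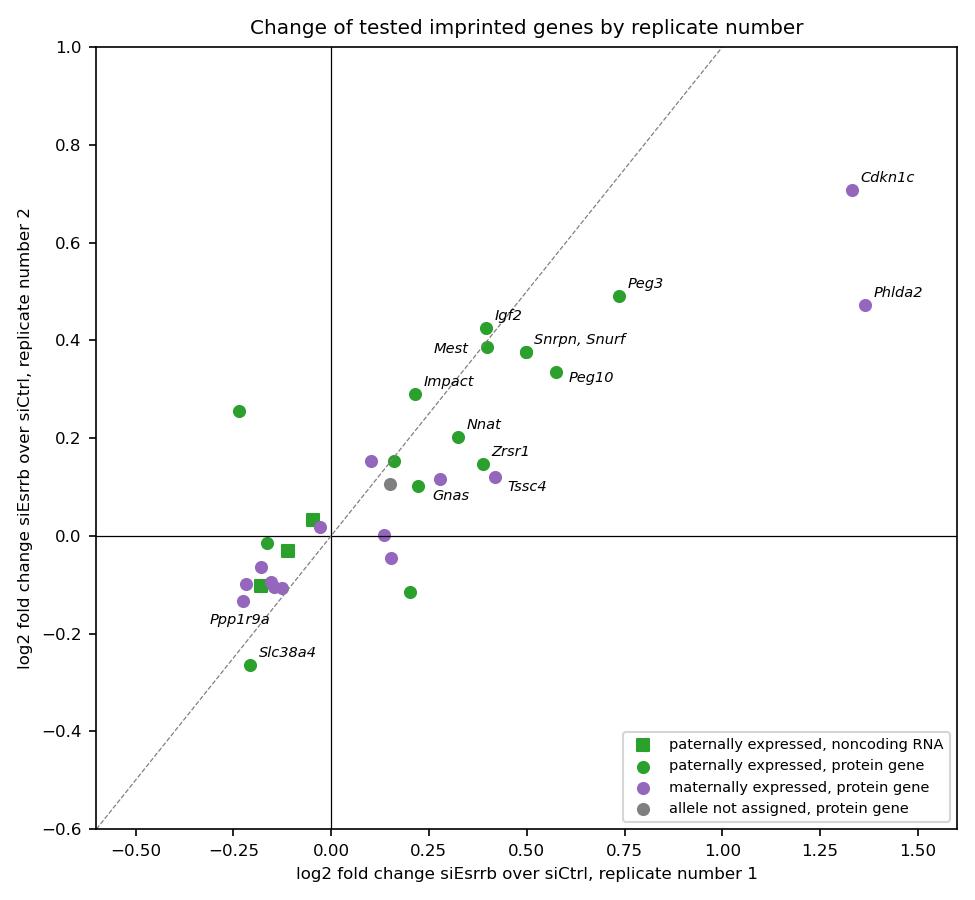
Log2 fold change of siEsrrb over siCtrl for the 33 tested imprinted genes, replicate number 1 on the x axis and replicate number 2 on the y axis, coloured by the parental copy usually expressed. Squares are noncoding RNAs, and the dashed line marks equal change. Cdkn1c and Phlda2 lie far to the right of the other genes, and their change in replicate 2 is the smaller of the pair.

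In the Kcnq1 domain the genes nearest the noncoding RNA did not change alike. Cdkn1c encodes p57, an inhibitor of cyclin-dependent kinases that restrains growth of the embryo. It stood at 0.625 and 0.647 RPKM in siCtrl and at 2.33 and 1.37 RPKM in siEsrrb, from 40, 129, 130 and 243 reads in the same order. The siEsrrb libraries were 373% and 212% of control. Its log2 fold change was 1.02 (SE 0.21), with an adjusted p of 0.283 in limma, fitted to log2(RPKM + 0.5), where the added 0.5 shrinks the change of low genes. It was the only tested imprinted gene whose groups lay at least 1.5-fold apart, a separation that 0.666% of all tested genes showed upward and 0.615% downward. Phlda2, which restrains growth of the placenta, stood at 3.04 and 3.17 RPKM in siCtrl and at 8.61 and 4.59 in siEsrrb. All of the siEsrrb values are above control, but the siEsrrb libraries are far apart. Its log2 fold change was 0.92 (SE 0.30, limma adjusted p 0.412), and it was 0.50 without siEsrrb replicate 1. Ascl2, a transcription factor of trophoblast, lay under the 0.5 RPKM minimum, with 0.087 and 0.289 RPKM in siCtrl and 0.537 and 0.414 in siEsrrb. Only 5 reads stand behind its first siCtrl value, and the other libraries had 52, 27 and 66. The summed trophoblast markers, among them Ascl2, were also highest in siEsrrb replicate 1, and their part in these values was not tested.

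The remaining genes of the Kcnq1 domain overlapped between the groups or separated narrowly. Kcnq1ot1, which silences its neighbours on the paternal copy, stood at 4.65 and 3.28 RPKM in siCtrl and at 4.05 and 3.02 in siEsrrb, or 87.1% and 92.0% of control, and the groups overlap. Tssc4, a splicing factor gene, had 2.71 and 2.44 RPKM in siCtrl against 3.79 and 2.70 in siEsrrb, where the second siEsrrb library falls within the siCtrl range. Cd81, a tetraspanin of the cell surface, had 4.39 and 4.85 RPKM against 4.86 and 4.86, so its groups separate by a margin of under 1%, and its log2 fold change of 0.068 was 0.0030 without siCtrl replicate 1. Nap1l4, a histone chaperone, was the only tested gene of the domain that was lower in both siEsrrb libraries, at 3.06 and 3.19 RPKM against 3.44 and 3.46. The transporter Slc22a18, directly beside Phlda2, had 0.133 and 0.258 RPKM against 0.137 and 0.236. Osbpl5, a lipid transfer protein gene at the edge of the domain, had 0.140 and 0.116 RPKM against 0.182 and 0.134, which overlap. Along the chromosome the genes with the high ratios, Ascl2, Cdkn1c and Phlda2, thus lay among genes with lower ratios. Kcnq1 itself, a potassium channel gene whose 319789 bases enclose Kcnq1ot1, held 199, 716, 174 and 655 reads in siCtrl and siEsrrb. Kcnq1ot1, transcribed from the other strand within it, held 9150, 20131, 6942 and 16444. The reads of Kcnq1ot1 were therefore not counted for Kcnq1, and the deposited values at this locus are specific for strand.

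Paternally expressed protein genes were the larger set among the higher genes. Of 15 tested, 8 were higher in both siEsrrb libraries, 0 were lower in both and 7 overlapped, against 21.8% higher and 22.0% lower among all tested genes. The 8 include Snrpn and Snurf, which rest on the same reads. The median log2 fold change of the 15 was 0.26. The 0 holds for tested genes and the transcripts used. Under the minimum, the paternally expressed Ddc, Plagl1 and Rasgrf1 were lower in both siEsrrb libraries, and Usp29 and Magel2 higher. The long form of Zdbf2, which does not stand for the gene here, was also lower, at 73.8% and 86.7% of control. Peg3, a zinc finger gene that affects growth and maternal care, stood at 2.46 and 3.41 RPKM in siCtrl and at 4.43 and 5.00 in siEsrrb. Both siEsrrb libraries lie above the siCtrl pair, at 180% and 146% of control (log2 fold change 0.61, SE 0.17, limma adjusted p 0.359). Mest, an enzyme gene of the hydrolase fold that is active in growing mesoderm, stood at 3.72 and 3.34 RPKM against 5.07 and 4.52. Its ratio was nearly the same in both replicates, 136% and 135% (log2 fold change 0.39, SE 0.10, adjusted p 0.355). Igf2 had 0.907 and 0.762 RPKM in siCtrl and 1.35 and 1.19 in siEsrrb, or 149% and 157% of control, from 144 to 524 reads. Its log2 fold change was 0.41 (SE 0.092, adjusted p 0.306). H19 beside it had 0.130 and 0.296 RPKM against 0.186 and 0.304, which overlap. Snrpn, a spliceosomal protein gene that shares its transcript with Snurf, had 2.87 and 2.21 RPKM in siCtrl against 4.26 and 3.02. The groups do not overlap, but siEsrrb replicate 2 exceeds siCtrl replicate 1 by little, and the adjusted p was 0.515 for a log2 fold change of 0.44 (SE 0.20), which was 0.22 without siEsrrb replicate 1 and 0.28 without siCtrl replicate 2.

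Impact, a regulator of translation under amino acid shortage, stood at 4.47 and 4.22 RPKM in siCtrl and at 5.27 in both siEsrrb libraries, above either control. The log2 fold change was 0.25 (SE 0.086, limma adjusted p 0.417). Peg10 had the largest absolute difference, from 16.9 and 12.5 RPKM in siCtrl to 25.5 and 15.9 in siEsrrb. The second siEsrrb library lies below the first siCtrl library, so the groups overlap (log2 fold change 0.46, SE 0.29). Without siEsrrb replicate 1 this fold change was 0.13. The neural gene Nnat had 0.312 and 0.528 RPKM against 0.516 and 0.682, from 18 to 109 reads, and also overlapped. Slc38a4, an amino acid transporter of placenta and liver, had the lowest log2 fold change of the tested paternal genes, -0.24 (SE 0.15; -0.083 without siCtrl replicate 2 and -0.11 without siEsrrb replicate 1), with 1.48 and 1.95 RPKM in siCtrl against 1.21 and 1.54 in siEsrrb, which overlap. Sfmbt2, a Polycomb-related gene of extraembryonic tissue, had 1.06 and 0.686 RPKM against 1.24 and 0.820. Zdbf2, a gene imprinted through a transient transcript of the early embryo, had 5.99 and 4.72 RPKM against 5.29 and 4.67 in its short form, and these overlap. Its long form, which covers a further 100.4 kb, had 4.95 and 3.86 RPKM in siCtrl and 3.65 and 3.34 in siEsrrb, and both siEsrrb values lie below the siCtrl pair.

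The paternal noncoding RNAs were not among the higher genes. Of the 3 tested, Kcnq1ot1, Airn and Nespas, 0 were higher in both siEsrrb libraries and 0 lower, with a median log2 fold change of -0.071. Nespas stood at 12.6 and 10.8 RPKM in siCtrl and at 12.2 and 11.01 in siEsrrb. Airn, which silences Igf2r on the paternal copy in most tissues, stood at 0.709 and 0.556 RPKM against 0.621 and 0.533. In both cases the groups overlap. Peg13, a noncoding RNA inside Trappc9, lay just under the minimum with 0.646 and 0.475 RPKM against 0.432 and 0.409, so both siEsrrb values were the lower ones. The difference between the noncoding RNAs and the protein genes was not tested, since they share clusters and libraries.

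Maternally expressed genes were split. Of 14 tested, 5 were higher in both siEsrrb libraries, 5 were lower and 4 overlapped, against 21.8% higher and 22.0% lower among all tested genes. They had a median log2 fold change of 0.025, a sign that turns without the library factors (-0.0086). Without Cdkn1c and Phlda2 the median of the other 12 was -0.060. Gnas, which encodes the stimulatory G protein alpha subunit, had 1.96 and 2.24 RPKM in siCtrl against 2.48 and 2.47 in siEsrrb. Both siEsrrb libraries are higher, and the log2 fold change was 0.20 (SE 0.085, limma adjusted p 0.496) and 0.12 without siCtrl replicate 1. H13, a signal peptide peptidase gene, had 2.41 and 2.13 RPKM against 2.62 and 2.42, so its groups barely separate, and its log2 fold change of 0.13 was 0.053 without siCtrl replicate 2. Ube3a, the ubiquitin ligase gene of Angelman syndrome, had 2.20 and 2.00 RPKM against 2.15 and 2.03, with a log2 fold change of -0.0051 (SE 0.077). Igf2r, the receptor that clears Igf2, had 0.968 and 1.24 RPKM against 1.13 and 1.19 and overlapped likewise.

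The 5 lower genes were Ppp1r9a, Trappc9, Commd1, Nap1l4 and Blcap. Ppp1r9a, a neuronal scaffold of protein phosphatase in the Peg10 cluster, stood at 0.914 and 0.909 RPKM in siCtrl and at 0.709 and 0.784 in siEsrrb, or 77.6% and 86.3% of control. Its log2 fold change was -0.18 (SE 0.071, limma adjusted p 0.463). Trappc9, a vesicle tethering subunit, stood at 0.569 and 0.602 RPKM against 0.419 and 0.530, or 73.7% and 88.0% of control. Its longest transcript, with 4830 and 15178 reads in siCtrl and 2853 and 11139 in siEsrrb, was at 67.8% and 82.7% of control. Commd1, a copper and NF-kappaB regulator, had 0.662 and 0.612 RPKM against 0.545 and 0.542. Blcap, a gene named for its loss in bladder cancer, had 5.16 and 4.55 RPKM against 4.51 and 4.34, a separation of about 1% between the nearest libraries. The log2 fold changes of the 5 lay between -0.18 and -0.12, and none passed the adjusted threshold. That of Blcap was -0.038 without siCtrl replicate 1 and that of Trappc9 was -0.076 without siEsrrb replicate 1.

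Clusters were compared because their genes share a control region. Of 14 clusters with a tested gene, 11 had a median log2 fold change above 0 in both replicate numbers and 2, Peg13-Trappc9 and Grb10, had one below 0 in both. Igf2r-Airn had medians of 0.022 and -0.038. Nap1l5-Herc3 and Nnat-Blcap, counted above 0, depend on Herc3 and Nnat, which passed the minimum only through their siEsrrb values. Blcap alone had log2 fold changes of -0.18 and -0.063. The share of all tested genes above 0 in both replicate numbers was not counted. Within a cluster the genes often differed: the spread from the lowest to the highest log2 fold change was 1.16 in the Kcnq1 cluster, 0.64 around Peg10 and 0.44 from Snrpn to Ube3a. Genes of a cluster are not replicates, and 6 of the 14 clusters rest on a single tested gene, so these medians carry no test.

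**Figure D3:**
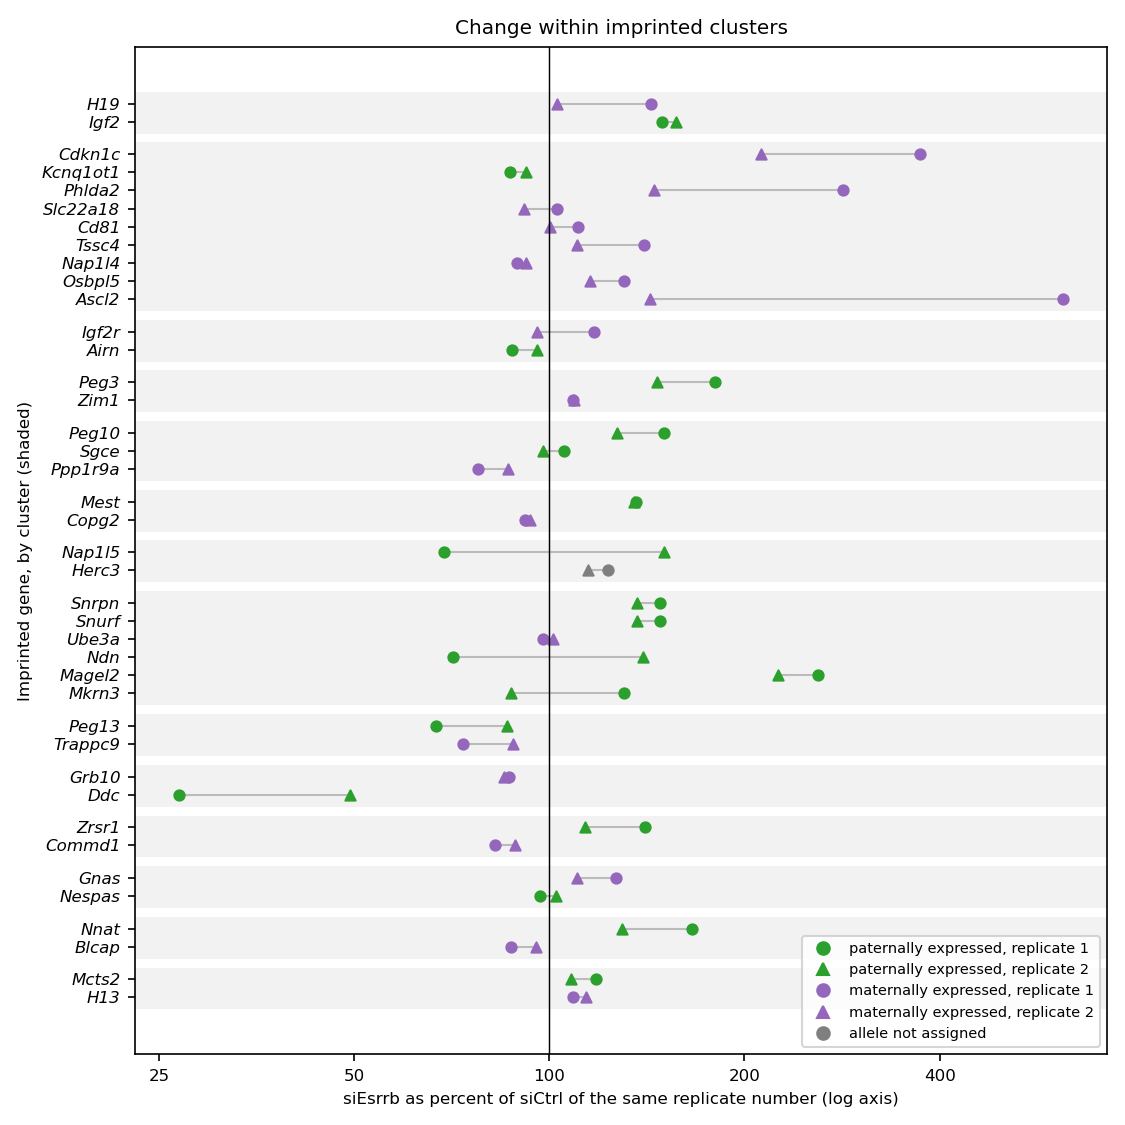
Scaled RPKM in siEsrrb as percent of the siCtrl library of the same replicate number (log axis) for 40 imprinted genes of at least 0.05 RPKM, grouped by cluster in shaded bands, with circles for replicate 1 and triangles for replicate 2. Zrsr1 and Nnat lie to the right of 100% and their hosts Commd1 and Blcap to the left, and Cdkn1c and Phlda2 lie to the right of Kcnq1ot1.

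Several clusters hold a paternally expressed retrogene within a maternally expressed host. Zrsr1, a splicing factor retrogene inside Commd1, stood at 1.65 and 1.99 RPKM in siCtrl and at 2.32 and 2.26 in siEsrrb, or 140% and 113% of control (log2 fold change 0.27, and 0.16 without siCtrl replicate 1). Its host Commd1 was at 82.4% and 88.5%. Nnat lay at 166% and 129% of control and its host Blcap at 87.3% and 95.3%. Mcts2, a translation re-initiation gene, and its host H13 did not part in this way: Mcts2 had 5.38 and 5.71 RPKM in siCtrl against 6.36 and 6.17, or 118% and 108% of control, and H13 was at 109% and 114%. Nap1l5 inside Herc3 had too few reads to compare, 5 and 6 in siCtrl and 3 and 8 in siEsrrb. Herc3, a ubiquitin ligase gene, had 0.446 and 0.526 RPKM against 0.550 and 0.605, or 123% and 115% of control. Mest and Copg2, a coat protein gene that overlaps its end, were at 136% and 135% against 91.8% and 93.5%, although the Copg2 groups overlap (0.434 and 0.544 RPKM against 0.398 and 0.509). By their annotated starts, Zrsr1, Nnat and Nap1l5 run on the strand opposite to their hosts. Mcts2 runs on the same strand as H13, where a read in the retrogene could also lie in the host. By its start and length of 17247 bases, the H13 transcript used here ends before the start of Mcts2.

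Genes that start side by side can differ widely in level. Peg3 and Usp29, a deubiquitinase gene, start 164 bases apart in opposite directions, and the sequence between them is printed above. Peg3 stood 82.8 times as high as Usp29 per length in siCtrl. Usp29 spans 236637 bases and had 0.037 and 0.033 RPKM in siCtrl against 0.045 and 0.044 in siEsrrb, from 209 to 683 reads. Both genes were higher in siEsrrb in both replicates, Usp29 at 121% and 132% of control. Zim1, a maternal zinc finger gene of the same cluster, had 0.113 and 0.198 RPKM against 0.123 and 0.216, which overlap. Peg10 and Sgce, a gene of the sarcoglycan complex, are also neighbours with a shared control region. Sgce had 0.275 and 0.308 RPKM in siCtrl and 0.290 and 0.301 in siEsrrb, so it showed no separation, while Peg10 was at 150% and 127% of control.

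From Snrpn to Ube3a only some paternal genes were higher. Magel2, a ubiquitin ligase partner lost in Prader-Willi syndrome, lay under the minimum at 0.173 and 0.122 RPKM in siCtrl and at 0.448 and 0.276 in siEsrrb, or 260% and 225% of control, from 19, 42, 43 and 84 reads. Both siEsrrb values exceed both siCtrl values. Ndn, a growth-restraining gene, had 0.539 and 0.486 RPKM in siCtrl against 0.383 and 0.677 in siEsrrb, and so went opposite ways by replicate number. Mkrn3, a ring finger gene, did likewise, with 0.482 and 0.758 RPKM against 0.630 and 0.662. The log2 fold changes of Ndn and Mkrn3 were 0.011 (SE 0.17) and 0.043 (SE 0.14), and that of Ndn turns sign without the library factors.

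Ddc, a dopa decarboxylase gene whose paternal copy is expressed in the heart, had the lowest ratio of the imprinted genes above 0.05 RPKM. It stood at 0.427 and 0.399 RPKM in siCtrl and at 0.115 and 0.197 in siEsrrb, from 769, 2241, 180 and 979 reads. Both siEsrrb libraries lie far below the siCtrl pair, at 26.9% and 49.2% of control. Because its mean fell under 0.5 RPKM, it was not in the tested set, and with no minimum its log2 fold change was -0.48 (limma adjusted p 0.467). The receptor core in the printed sequence lies 67 bases before the upstream start of Ddc. Between that start and the downstream start, 7.7 kb further on, there were 0 and 2 reads in siCtrl and 0 and 1 in siEsrrb, so nearly all Ddc reads lie past the downstream start, whose window holds none of the searched letters. In Mest, too, 1 of the annotated starts gave nearly all reads: the 4.5 kb before the start printed above held 0, 0, 1 and 0 reads. Grb10, an adaptor that dampens insulin and growth factor signals and the maternal partner of Ddc, stood at 0.818 and 0.465 RPKM against 0.709 and 0.396, and the groups overlap (log2 fold change -0.12, SE 0.23). This sign turns to 0.11 without siCtrl replicate 1 and to 0.10 without siEsrrb replicate 2. On the other side of Grb10 lies Cobl, an actin nucleator, with 2.56 and 2.52 RPKM in siCtrl against 0.396 and 0.996 in siEsrrb, or 15.5% and 39.4% of control (log2 fold change -1.39, SE 0.26, adjusted p 0.277). Fignl1, next to Ddc on its far side, had 2.75 and 3.06 RPKM against 2.40 and 2.80, which overlap. Ddc and Cobl thus flank a gene that stayed closer to control.

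**Figure D4:**
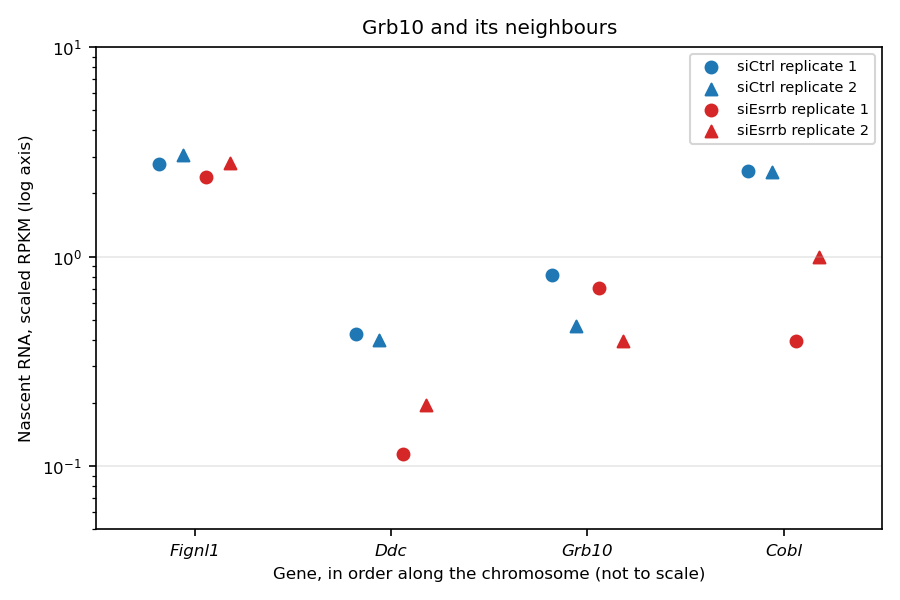
Scaled RPKM (log axis) of Fignl1, Ddc, Grb10 and Cobl in the order in which they lie along the chromosome, with 1 point per library (siCtrl blue, siEsrrb red, replicate 1 circles, replicate 2 triangles). The siEsrrb points of Ddc and Cobl lie well below their siCtrl points, and those of Fignl1 and Grb10 overlap them.

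Other imprinted genes and close neighbours of the clusters were read for comparison: of 46 listed 44 were found and 12 tested, with 1 higher and 4 lower in both siEsrrb libraries, against 21.8% and 22.0% of all tested genes. In limma 0 were past the adjusted threshold, and 2, both lower, had an unadjusted p under 0.05, against 5.33% of all tested genes. Beside Cobl, the lower ones included Ago2, a small RNA effector gene near Trappc9, with 3.05 and 2.78 RPKM against 2.39 and 2.33. Chrac1, a chromatin accessibility subunit gene near it, was the higher one, with 0.555 and 0.527 RPKM against 0.637 and 0.686.

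Of the 20 genes under the minimum, 4 were higher in both siEsrrb libraries, 5 were lower and 11 overlapped, against 18.3% higher and 16.2% lower among all 24260 genes with no minimum. Besides those named above, Inpp5f, a phosphoinositide phosphatase gene, had 0.402 and 0.489 RPKM against 0.481 and 0.529 and overlapped. Plagl1, a zinc finger regulator of imprinted growth genes, was low throughout, with 0.063 and 0.076 RPKM against 0.038 and 0.059. Slc22a3, Rasgrf1, Dcn, Asb4 and Kcnk9 had at most 38 reads in any library, too few for a direction at this depth.

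The insulin-like growth factor genes were taken as a pathway around Igf2, Igf2r and Grb10. Of 20 listed, 10 were tested, 4 were higher in both siEsrrb libraries and 0 lower, against 21.8% and 22.0% of all tested genes. In limma 0 passed the adjusted threshold, and 3, all higher, had an unadjusted p under 0.05, against 5.92% of all tested genes. Igfbp3, a binding protein of the ligands, had 0.568 and 0.514 RPKM against 1.17 and 0.785 (log2 fold change 0.49, SE 0.15), and Igfbp2, another, had 4.36 and 5.21 against 3.56 and 4.50, which overlap. Among 7 inhibitors of cyclin-dependent kinases 3 were tested, and Cdkn1c was the only one whose groups separated. Cdkn1a, which encodes p21, had 1.82 and 3.06 RPKM in siCtrl against 2.15 and 2.85 in siEsrrb, within the siCtrl range.

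Among genes that set or keep imprints, Zfp57 and Tet2 were lower and Dnmt3a and Dnmt3b higher in siEsrrb. Of 21 listed, 18 were tested, 4 were higher in both siEsrrb libraries and 8 lower, against 21.8% and 22.0% of all tested genes. In limma 0 passed the adjusted threshold. At an unadjusted p under 0.05, limma called 2 higher and 4 lower genes, against 5.92% and 5.33% of all tested genes. Zfp57, which protects methylated control regions, had 24.6 and 20.2 RPKM in siCtrl and 10.8 and 12.3 in siEsrrb, or 43.9% and 60.5% of control (log2 fold change -0.93, SE 0.16, adjusted p 0.250). Tet2, which oxidises methylated cytosine, was at 28.8% and 53.8% of control (log2 fold change -1.12, SE 0.21). The methyltransferase genes Dnmt3b and Dnmt3a were on the higher side, at 251% and 227% and at 173% and 150% of control. DNA methylation was not measured, and whether these values bear on the imprinted genes was not tested.

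Among 8 miRNA genes within or beside the imprinted genes, 5 were tested, and 0 passed the adjusted threshold. In limma 1 of them, higher, had an unadjusted p under 0.05, against 5.92% of all tested genes. Mir483, beside Igf2, reached the minimum only through siEsrrb, on 0, 2, 2 and 2 reads, too few for a direction. Mir335, which lies in an intron of Mest, had 4.32 and 4.99 RPKM in siCtrl against 5.95 and 8.13 in siEsrrb, or 138% and 163% of control, from only 10 to 52 reads. Its value and that of Mest rest partly on the same reads. The mature sequence is shown with its seed, bases 2 to 8, in capitals, since it is the product a reader would look up beside Mest.
mmu-miR-335-5p: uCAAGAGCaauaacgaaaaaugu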

How the data were processed

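Nascent RNA was measured in 4 libraries, 2 siCtrl and 2 siEsrrb, grouped by sample titles. The authors deposited RPKM per RefSeq transcript (34929 rows). Per the submitters' processing notes, CASAVA 1.4, TopHat2 and build mm9 were used, with Bowtie 1.1.1 and Bowtie2 besides for replicate 1; the sources used here do not give the counting program, strand setting or filters. A series table in RPKM repeats the replicate 1 values and was used only for that check. Whole reads were recovered from the RPKM of 31770 of 31771 transcripts above 0, within 0.001 of a read; the lengths include introns.

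RPKM were scaled per library by medians of ratios, and log2(RPKM + 0.5) was tested in limma 3.58.1 (R 4.3.3, two-sided, trend, Benjamini-Hochberg) for genes with a mean of at least 0.5 RPKM. The procedure was tested on simulated data with changes larger than any fitted for the tested imprinted genes. That simulation therefore does not show whether changes as small as theirs would be found. Symbols came from GRCm38.p6 tables, and coordinates are given only for the printed promoter windows of that build. The members and lists were chosen with earlier results of these data known. Every member is accounted for; those of at least 0.5 RPKM are given per library, others by range unless a neighbour is tested, and of each list the 2 genes of smallest p in each direction are the ones that may be named. Alternatives were pseudocount, minimum, scaling, transcript choice, a replicate block, voom on reads, and each library left out.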

Additional observations from a re-analysis of the deposited data

How the results depend on the processing

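The limits of the data are 2 libraries per group, unequal depth between replicate numbers and low read numbers for short genes. The count of imprinted genes past the adjusted threshold in limma was 0 in 12 of 13 alternatives, the exception being voom with a replicate block. The replicate numbers are not stated to pair the libraries; same-numbered libraries deviated together across genes (r = 0.39 over 9758 genes), which with 2 pairs does not establish pairing. With the replicate number as a block, limma on RPKM called 0 genes, and voom on recovered reads called 2764 of all genes (13.1% higher and 15.2% lower) and 19 of the 33 imprinted genes, 13 higher and 6 lower. The 6 were Ppp1r9a, Trappc9, Commd1, Grb10, Slc38a4 and Kcnq1ot1.

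The median log2 fold change of the imprinted genes stayed above 0 in every alternative run: 0.086 with a pseudocount of 1, 0.025 with no minimum, 0.20 with a minimum of 2 RPKM, 0.092 without library factors, 0.16 with voom and block, and 0.077 to 0.18 with 1 library left out. With no minimum, 10 of 53 genes were lower without overlap and 18 higher, against 16.2% and 18.3% of all 24260 genes. With a minimum of 2 RPKM, 2 of 19 were lower, and the share over all genes was not counted. With 1 library left out, 7 to 11 of 33 were lower, against 32.4% to 39.9% of all tested genes. The higher counts of those fits are given with the main comparison. In them the lone library is assumed to vary like the other group. Genes of the whole table past the threshold then numbered 0 to 12. Clusters below 0 in both replicates numbered 1 with a minimum of 2 RPKM and 1 with the transcript of most reads, and 3 with no minimum and 3 without library factors; clusters above 0 numbered 8 with a minimum of 2 RPKM, 10 with no minimum and 11 otherwise. The median of the maternal genes turned to -0.0086 without library factors and ranged from -0.0029 (without siCtrl replicate 2) to 0.051 (without siEsrrb replicate 2) with 1 library left out; the cause was not tested.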
